A study of Homo sapiens with 4 samples.

Results

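RNA that came down with EXOSC10 was set against RNA that came down with control IgG in LM2-4175 cells given doxycycline, across all genes other than the ribosomal RNA genes. EXOSC10, also called RRP6, is the nuclear 3' to 5' exoribonuclease of the RNA exosome, the complex that trims the 3' ends of ribosomal and small nucleolar RNA precursors and degrades faulty or short-lived nuclear transcripts. The exosome core is a ring of catalytically inactive subunits to which the nucleases DIS3 and EXOSC10 attach, and cofactor complexes such as TRAMP, NEXT and PAXT bring RNAs to it. In RNA immunoprecipitation the antibody recovers a protein with the RNA bound to it, and nonspecific IgG shows what the beads and the procedure retain without that antibody.

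LM2-4175 cells descend from the MDA-MB-231 breast cancer line by selection for growth in the lung. All of them carried an inducible construct of the ceramide synthase CerS4 and were kept under puromycin and hygromycin. The study asked how the PD-L1 and Caprin-1 complex bears on mRNA degradation when lipid metabolism is altered. The doxycycline pair, 2 of the 4 libraries of the series, consisted of 1 EXOSC10 library and 1 IgG library from cells kept in doxycycline at 5 µg/mL for 48 h, and the other pair was made in the same way from cells without doxycycline. With 1 library per group no difference has a replicate check, no p-value is given, and the intervals below cover counting error only. No antibody-free input library was analysed here, so the ratios do not separate binding from abundance in the starting RNA.

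The doxycycline EXOSC10 library held 5511224 estimated reads and the doxycycline IgG library 7575135, but ribosomal RNA genes took 56.3% and 83.8% of them. This left 2408182 reads with EXOSC10 and 1229745 with IgG on 12820 other gene symbols. The untreated pair stood closer, with 75.8% and 71.7% on ribosomal RNA genes and 1023364 and 1052993 other reads. For every 1000 reads on mature 18S and 28S genes, 45S precursor genes had 17.5 in the doxycycline EXOSC10 library, 1.91 in its IgG partner, 7.21 in untreated EXOSC10 and 3.60 in untreated IgG. The ribosomal share was thus lower with EXOSC10 than with IgG under doxycycline and higher untreated, while the 45S reads were higher with EXOSC10 in both pairs. The part of these differences in the ratios below was not tested. Of the listed markers of the mesenchymal MDA-MB-231 line, 13 of 13 had an entry and summed to 10761 reads with EXOSC10 and 5355 with IgG; of the blood and immune markers 1 of 12 had an entry (CD68), and of the fibroblast and endothelial markers 4 of 12, at 206 and 75 reads. Among markers of the lung-metastatic derivative 14 of 16 had an entry, at 4312 and 1193 reads, while PTGS2 and CXCL1 had none. Among luminal breast markers 10 of 12 had an entry, at 2686 and 458 reads, while ESR1 and EPCAM had none.

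All ratios are log2 of EXOSC10 over IgG after TMM scaling (a trimmed mean of log ratios) with 0.2 CPM added, and are expressed relative to a reference: the median over 3580 genes that had at least 100 reads in both pairs of libraries. A relative ratio of 0 is thus the middle of those genes. A gene was tested where the doxycycline pair held at least 100 reads, and was called above or below at a distance of at least 2-fold. Of 6259 genes tested, 2069 (33.1%) lay above and 1121 (17.9%) below. In the untreated pair 641 of 3600 genes (17.8%) lay above and 876 (24.3%) below. This split depends on where 0 is put: from 0 on the TMM scale itself 854 genes lay above and 1674 below, and by the total of non-ribosomal reads 3254 and 650. These scalings shift the ratios of all genes nearly alike, so gene groups are read against the median of all genes tested, which was 0.57.

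The middle 50% of genes tested, from the 25th to the 75th percentile, spanned relative ratios of -0.57 to 1.19, the 5th percentile was -1.93 and the 95th 2.10. A distance of 4-fold was reached by 362 genes above and 281 below. The 1121 genes below took 63.1% of the non-ribosomal reads of the IgG library and 26.2% of those of the EXOSC10 library, whereas the 2069 genes above took 6.55% and 24.7%. The same 1121 genes took 63.4% and 35.5% of the untreated IgG and EXOSC10 reads. Those libraries entered the choice only through the reference genes and the TMM factors. The direction of the doxycycline shares was fixed by choosing the genes on that ratio. Chosen without the ratio, the 10 genes with the most reads in each library held 12.6% of the IgG and 5.16% of the EXOSC10 non-ribosomal reads. The leading genes of the IgG library included PABPC1, EEF1A1, EIF4G2 and TUBA1B.

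Abundance in the untreated pair, which entered the ratio only through the reference genes and the TMM factors, moved with the relative ratio. Genes with 10 to 50 untreated reads had a median of 1.25, with 61.0% above and 2.01% below. Genes with 200 to 500 reads had a median of -0.16, with 20.6% above and 28.5% below, and the 301 genes with 1000 or more had a median of -1.48, with 5.32% above and 71.4% below. A low gene reaches 100 reads more easily through the deeper EXOSC10 library, so the counts above among low genes are not read further. Among the 693 genes with at least 500 untreated reads, the ratios formed a larger and a smaller peak with no gap between them. Of these genes 160 lay between -2 and -1.5, 57 between -0.5 and 0, 34 between 0 and 0.5, and 65 between 1 and 1.5. The untreated pair, which shares no library with the doxycycline pair, showed the same shape for these genes, with 216 between -1.5 and -1, 31 between 0 and 0.5, and 88 between 0.5 and 1. The reference median lies in the sparser zone between the peaks. What sets the peaks apart, and whether all reads on these abundant genes come from RNA of the cells, was not tested.

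**Figure D1:**
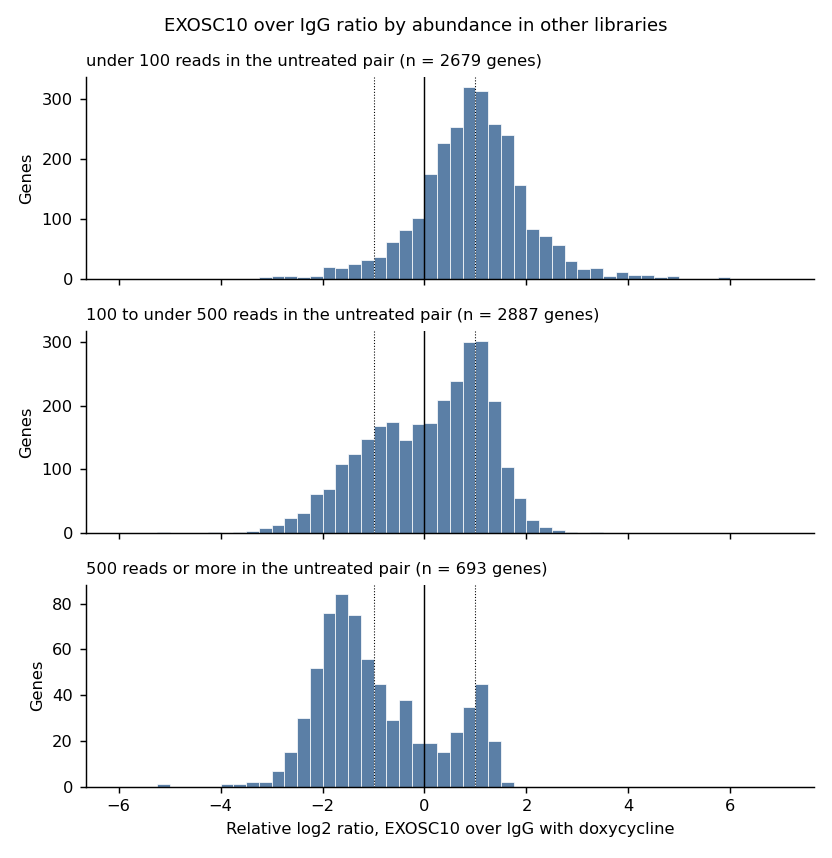
Number of genes (y axis) at each relative log2 ratio of EXOSC10 over IgG with doxycycline (x axis), in 3 panels by reads in the untreated pair; the solid line is the reference median and the dotted lines are 2-fold from it. Low genes form 1 peak near 1, while the 693 genes with at least 500 untreated reads form a large peak below -1 and a smaller one near 1, with genes in between.

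Of the 3580 genes tested in both pairs, 656 were below in both, 340 were below with doxycycline and in between untreated, and 3 were below with doxycycline and above untreated. On the other side 348 were above in both, 424 were above with doxycycline and in between untreated, and 1 was above with doxycycline and below untreated. In between with doxycycline were 287 genes called above untreated, 210 called below untreated and 1311 in between in both. All 4 libraries set the TMM factors and the reference genes, which shift every ratio of a pair alike.

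Of the genes the design turns on, CERS4 and CD274, which encodes PD-L1, have no entry analysed here, so induction of the construct was not checked. CAPRIN1 encodes a stress granule protein that binds RNA, and it had 852 reads with IgG and 1251 with EXOSC10, a relative ratio of -0.93 (95% interval -1.06 to -0.81), just short of the 2-fold distance. Untreated, it had 826 and 499 reads and lay at -1.25. EXOSC10 mRNA had 21 and 78 reads, too few to be tested, and its interval of -0.31 to 1.17 spans the reference.

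The farthest gene below was WNT7A, a secreted Wnt ligand on chromosome 3 (13816258 to 13880071, GRCh38). It had 479 reads with IgG and 37 with EXOSC10, a relative ratio of -5.08 (-5.71 to -4.70), or 33.8-fold below the reference. In untreated cells it had 95 and 152 reads and lay at 0.15, so the doxycycline ratio was lower by -5.23 (-5.84 to -4.63) and both libraries moved, the IgG count being the higher and the EXOSC10 count the lower of each antibody's libraries. NEO1, the neogenin receptor, had 795 and 151 reads (-3.86), and NAA15, the auxiliary subunit of the N-terminal acetyltransferase NatA, 1698 and 490 (-3.27). USP9X, a deubiquitinase, had 1180 and 405 reads (-3.02). JUND, an AP-1 transcription factor, had 1520 and 561 (-2.92), and DHX15, a helicase that takes spliceosomes apart, 3160 and 1212 (-2.87). IGIP (-4.19), JADE1 (-3.49), RC3H2 (-3.15), NRP2 (-3.00) and GPR137B (-3.23) complete the 12 genes below together with CASK, a membrane scaffold protein, which had 475 and 162 reads (-3.02). GPR137B was too low to be tested in the untreated pair, and the others except WNT7A and CASK were called below there too, at ratios from -1.90 for IGIP to -1.09 for NRP2.

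The genes farthest above were all at the low end of the IgG counts, with 1 to 11 reads, and their intervals are wide. C2orf68 had 2 reads with IgG and 151 with EXOSC10, a relative ratio of 4.35 (2.87 to 7.81). URM1, a ubiquitin-like protein that serves tRNA thiolation, had 2 and 140 (4.24, 2.76 to 7.70), and PSMG4, a proteasome assembly chaperone, had 1 and 109 (4.56, 2.77 to 10.6). POLR1C, a subunit shared by RNA polymerases I and III, had 4.97 and 178 reads (3.51, 2.42 to 5.32). STX12, an endosomal syntaxin, had 2 and 118. KLHL17 (3.92), MCRIP1 (3.85), GSTM3 (3.81), CDCA7 (3.54), TUBGCP6 (3.05) and FYCO1 (2.92) followed. All of these had fewer than 100 reads in the untreated pair, so none was tested there.

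**Figure D2:**
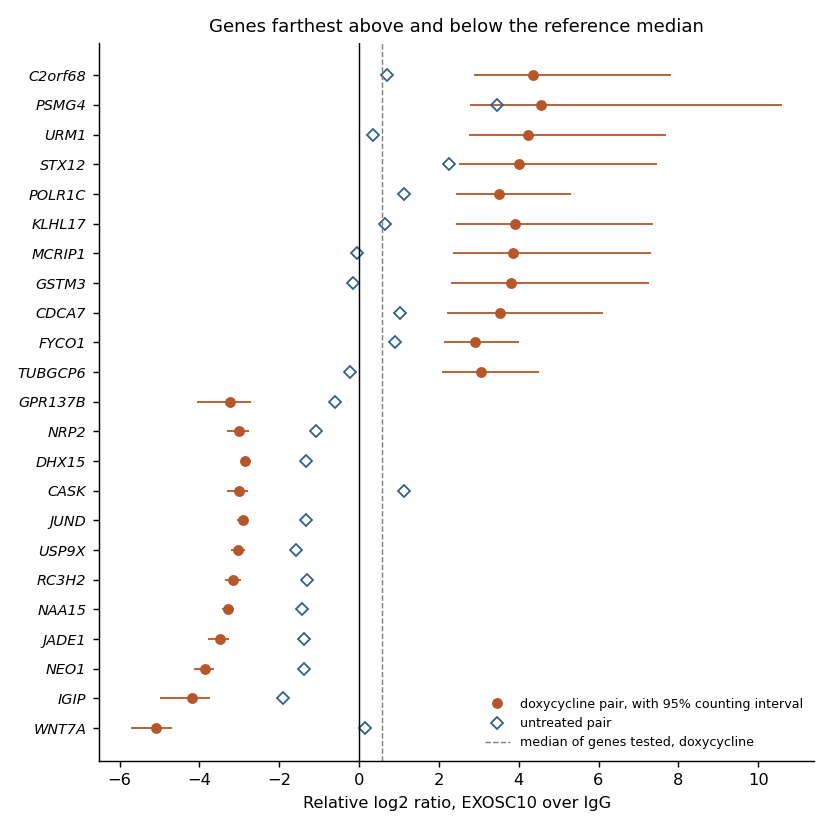
Relative log2 ratio of EXOSC10 over IgG (x axis) for 11 genes farthest above and 12 farthest below among genes with whole reads (y axis), filled for the doxycycline pair with 95% counting intervals and open for the untreated pair. Intervals are wide above, where IgG had 1 to 11 reads, and narrow below; WNT7A and CASK are the genes below whose untreated value lies above 0.

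The gene lists that follow are described by counts and medians, to be read beside the 33.1% of all genes tested that lay above, the 17.9% below and the median of 0.57. Members with few reads passed the minimum mostly through the deeper EXOSC10 library, which favours counts above in lists of low genes, so such counts describe the members tested and support nothing about the list. For that reason some lists are also given within bins of untreated reads. Each member's distance from the median of all genes tested in its bin was taken, and then the median of those distances. This alternative was added after the data were seen.

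The mRNAs of the exosome itself were mostly too low to test. Of the core and catalytic subunits 11 had an entry and 3 were tested, 2 above and 0 below: EXOSC6 with 13 and 134 reads (1.83, 1.05 to 2.82), EXOSC2 with 24 and 157 (1.21, 0.59 to 1.91) and DIS3, the other nuclease of the complex, with 25.3 and 137 (0.94). The median of these 3 subunits lay 0.64 over that of all genes tested, but 0.10 over it within bins of untreated reads. With a minimum of 20 reads 8 subunits were tested and the distance was 0.27. Of the nuclear cofactors 12 were tested, 1 above and 4 below, with a median of -0.10. ZCCHC8, the scaffold of NEXT, lay above with 5 and 107 reads (2.78), while ZFC3H1, a scaffold of PAXT, lay below with 172 and 153 reads (-1.64) and TENT4B, the poly(A) polymerase of TRAMP, with 177 and 167 (-1.56). Of the cytoplasmic decay machinery 31 were tested, 3 above and 8 below, with a median of -0.66, at a distance of -1.23 from the median of all genes tested and of -0.89 within bins. CNOT1, the scaffold of the CCR4-NOT deadenylase, had 2374 and 687 reads (-3.27, untreated -1.38), CNOT6L, one of its nucleases, 293 and 103 (-2.96, untreated -1.05), and CNOT2 530 and 430 (-1.78, untreated -1.35). UPF1, the helicase of nonsense-mediated decay, had 118 and 638 reads and lay at 0.94 with doxycycline and 0.93 untreated.

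The mRNAs of cytosolic ribosomal proteins lay on both sides of the reference. Of 79 tested, 31 lay above and 10 below, and the median was 0.92. Cut at 0, a low set of 16 ran from -1.74 to -0.30 with a median of -1.13. The high set of 63 ran from 0.12 to 2.25 with a median of 0.99. These ranges follow from the cut, which no wide gap marks: RPL12 lay at -0.37, RPS18 at -0.30, RPL37 at 0.12 and RPS3 at 0.33. RPLP0, a stalk protein, had 3909 reads with IgG and 3928 with EXOSC10 (-1.48, -1.55 to -1.42), and RPS27 had 605 and 506 (-1.74, -1.92 to -1.57). RPS6, a kinase substrate of the small subunit, had 109 and 955 (1.64, 1.35 to 1.94), and RPS26 10 and 140 (2.25, 1.40 to 3.41). So RPS6 had more EXOSC10 reads than RPS27 and fewer IgG reads.

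Most of these genes lay on the same side of 0 without doxycycline. All 16 of the low set lay below 0 in the untreated pair, from -1.92 to -0.56, and 58 of the 61 of the high set that were tested lay above 0; the exceptions, named after their values were seen, were RPL37, RPL36AL and RPS12. Within bins of untreated reads the median distance of the ribosomal proteins from all genes tested in their bin was 1.34, the largest of the 37 lists.

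**Figure D3:**
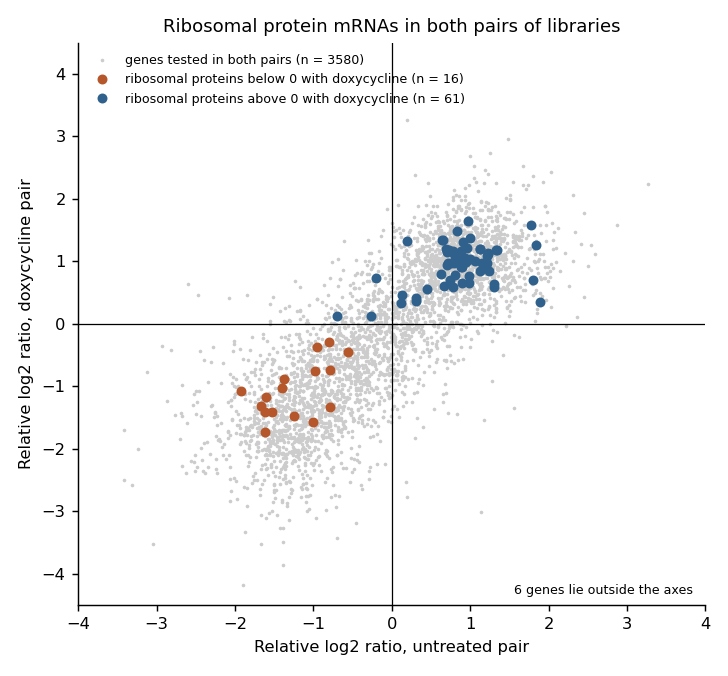
Relative log2 ratio of EXOSC10 over IgG in the untreated pair (x axis) and in the doxycycline pair (y axis), with 1 point per gene tested in both; 6 genes lie outside the axes. Ribosomal protein mRNAs below 0 with doxycycline (16 genes) all fall in the lower left, and 58 of the 61 above 0 fall in the upper right.

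The letters at the transcript start were compared next, since ribosomal protein mRNAs typically begin with a terminal oligopyrimidine tract, a C followed by pyrimidines that couples their translation to nutrient signals. Starts are those of RefSeq on GRCh38.p14, with 6 bases before and 18 from the start, 5' to 3'; the tract is in capitals, or its first 18 bases where it is longer. The 4 lowest and 4 highest ribosomal protein genes with whole reads and a tract are shown because they differ in ratio and not in having it.
RPS27, chr1:153990756-153990779, plus strand: ttcgctCCTTTCCggcggtgacga
RPL27A, chr11:8682786-8682809, plus strand: gccttcCTTTTTCgtctgggctgc
RPLP0, chr12:120201094-120201117, minus strand: cgaggcCCTTCTCTCgccaggcgt
RPL37A, chr2:216498838-216498861, plus strand: ctcttcCTTTCTgggctcggacct
RPS21, chr20:62387097-62387120, plus strand: ctgcttCCTTTCTCTCTCgcgcgc
RPL34, chr4:108620570-108620593, plus strand: tttcttCCTCTTCCggggacgttg
RPL39, chrX:119791613-119791636, minus strand: cagcttCCCTCCTCTTCCTTTCTC
RPS6, chr9:19380219-19380242, minus strand: ttggccCTCTTTTCCgtggcgcct

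RPS27, RPL27A, RPLP0 and RPL37A lay at -1.74, -1.58, -1.48 and -1.08, and RPS21, RPL34, RPL39 and RPS6 at 1.26, 1.36, 1.37 and 1.64. A tract of a C at the first base and at least 4 C or T after it, read on the transcript's strand, was found in 9 of the 13 low-set genes with a RefSeq window and in 37 of the 50 high-set genes. A window was held for 79.7% of the ribosomal proteins tested, under the 80% set for such a check, so this comparison is void and given as counts only. Among all genes tested, 81.7% had a window and 8.82% of those had a tract, against 5.14% of all symbols with a window. The median relative ratio was 0.46 with a tract and 0.55 without, a small distance beside the spread of the genes. Of 30 other mRNAs with a known tract, 10 lay above and 8 below, with a median of 0.43; the 33.3% above is close to the 33.1% of all genes tested. TPT1 had 415 and 2671 reads (1.20), and EEF1A1, the most abundant elongation factor, 34211 and 26491 (-1.86). Their median lay under that of all genes tested, but 0.28 over it among genes with at least 500 reads and 0.64 over it within bins of untreated reads.

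Lists of ribosome assembly, tRNA charging and energy metabolism had medians over that of all genes tested, by 0.67 for mitochondrial ribosomal proteins, 0.45 for respiratory chain subunits, 0.34 for ribosome biogenesis factors and 0.44 for aminoacyl-tRNA synthetases. Within bins of untreated reads these distances were 0.36, 0.33, 0.17 and 0.53. Of the mitochondrial ribosomal proteins 48 were tested, 32 above and 0 below, with a median of 1.24 and none under 0.19; MRPL4 had 22 and 330 reads (2.39). Of the nuclear-encoded respiratory chain subunits 69 were tested, 37 above and 2 below, with a median of 1.02, though among the 7 members with at least 500 reads the distance from the median of all genes tested was -0.46. SDHA, the flavoprotein of complex II, had 46 and 607 reads (2.22, untreated 1.68). The 2 below were subunits of ATP synthase, ATP5F1B with 7284 and 4857 reads (-2.07, untreated -1.40) and ATP5MC3 with 1812 and 1571 (-1.69, untreated -1.68). Of the ribosome biogenesis factors 85 were tested, 39 above and 8 below, with a median of 0.91. RRP12 had 10.1 and 226 reads (2.92), whereas XRN2, the nuclear 5' to 3' exonuclease, had 544 and 308 (-2.30, untreated -1.55). Of the aminoacyl-tRNA synthetases 26 were tested, 13 above and 3 below, with a median of 1.01; LARS1 had 76 and 757 reads (1.82) and GARS1 537 and 369 (-2.02).

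Noncoding RNAs linked to the nucleus were mixed. The small nucleolar RNA host genes, whose introns carry small nucleolar RNAs and whose spliced RNAs are short-lived, had 21 entries and 8 genes tested, 5 above and 0 below. Their median of 1.80 was the highest of the 37 lists, but with only the entry of most reads per gene its distance from the median of all genes tested was -0.016, and within bins of untreated reads it was 0.74. DANCR had 9 and 160 reads (2.58, 1.70 to 3.82) and SNHG7 10 and 121 (2.04, 1.18 to 3.20). SNHG1 had no whole read with IgG and 111 with EXOSC10, in fractions shared with other models. Of 45 long noncoding RNAs of all kinds tested, 20 lay above and 5 below, with a median of 0.89.

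MALAT1 and NEAT1, long RNAs retained in nuclear speckles and paraspeckles, had 933 and 5705 reads (1.12, 1.02 to 1.22) and 516 and 3001 reads (1.05, 0.92 to 1.19). Untreated they lay at 1.22 and 1.14, so their ratios differed between the pairs by no more than counting error, with changes of -0.10 (-0.28 to 0.09) and -0.09 (-0.31 to 0.14). With doxycycline both lay under the 75th percentile of all genes tested, 1.19. TUG1 lay at 1.12 when its entries were summed and at -1.39 by its entry of most reads. The RNA of the signal recognition particle, RN7SL1, had 13153 and 14559 reads (-1.34) against 1.56 untreated, and RN7SK, which restrains the elongation factor P-TEFb, 1618 and 3209 reads (-0.50) against 1.43 untreated. The 9 abundant nuclear and polymerase III RNAs tested had a median of 0.98 when entries were summed, but a distance of -0.17 from the median of all genes tested by the entry of most reads.

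The lists farthest below were those of RNA-binding proteins and chromatin factors. Of the stress granule proteins and Caprin-1 partners 32 were tested, 3 above and 19 below, with a median of -1.39, at a distance of -1.96 from the median of all genes tested and of -0.37 within bins of untreated reads. DDX3X, an RNA helicase, had 3965 and 2358 reads (-2.24), and PUM2, a Pumilio protein that represses mRNAs, 1055 and 637 (-2.21, untreated -1.82). The paralogs G3BP1 and G3BP2, which nucleate stress granules and bind Caprin-1, lay on opposite sides. G3BP2 had 573 and 312 reads (-2.36, -2.57 to -2.16, untreated -1.10). G3BP1 had 87 and 537 (1.13, 0.81 to 1.48, untreated 1.21), though its entry of most reads alone gave -0.56. Of the poly(A) and poly(C) binding proteins 13 were tested, 1 above and 8 below, with a median of -1.08. PABPC1, which coats poly(A) tails and led the IgG library, had 35488 and 21927 reads (-2.18, untreated -2.42), and PCBP2 11981 and 5910 (-2.51, untreated -3.41); reads of PABPC1 and of its near-identical copy PABPC3 (4232 and 2454) cannot be cleanly divided.

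Of the hnRNP, SR and spliceosome proteins 77 were tested, 9 above and 32 below, with a median of -0.86. SF3B1, which recognises the branch point, had 2572 and 1387 reads (-2.38, untreated -1.52), and PRPF31, a protein of the tri-snRNP, 20 and 192 (1.75, untreated 0.46). The distance of this list from the median of all genes tested was -1.43, and within bins of untreated reads it was -0.15, so most of it was shared with other genes of the same abundance. Of the chromatin remodellers and histone methylation factors 50 were tested, 2 above and 22 below, with a median of -0.89. Their distance was -1.46 and, within bins, -0.93. CHD4, the ATPase of the NuRD complex, had 1495 and 764 reads (-2.45, untreated -1.26) and KDM2B, a histone demethylase, 303 and 139 (-2.59, untreated -1.02). KDM4B, another demethylase, had 26 and 256 (1.79, untreated 1.30).

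Proteasome subunits spread widely, with 33 tested, 9 above, 12 below and a median of -0.55: PSMD11, of the lid, had 1919 and 836 reads (-2.68, untreated -2.05) and PSMC3, an ATPase of the base, 15 and 202 (2.22, untreated 0.15). Translation initiation and elongation factors had 56 tested, 14 above and 16 below, with a median of -0.07. EIF4G2, an initiation factor without the site for the cap-binding protein, had 16509 and 6139 reads (-2.92, untreated -1.84), and EIF4EBP1, which sequesters the cap-binding protein, 21 and 187 (1.64, untreated 0.87). DEAD and DEAH box helicases (33 tested, 3 above, 7 below, median 0.19) and nuclear pore and transport factors (51 tested, 9 above, 10 below, median 0.23) lay between these groups. Replication-dependent histone mRNAs, which end in a stem-loop in place of a poly(A) tail, had 15 tested, 4 above and 7 below; their median of 0.00 lay under that of all genes tested, but 0.076 over it when the libraries were thinned to equal non-ribosomal reads. H2AW had 4937 and 4440 reads (-1.64) and H1-2 43 and 265 (1.13).

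**Figure D4:**
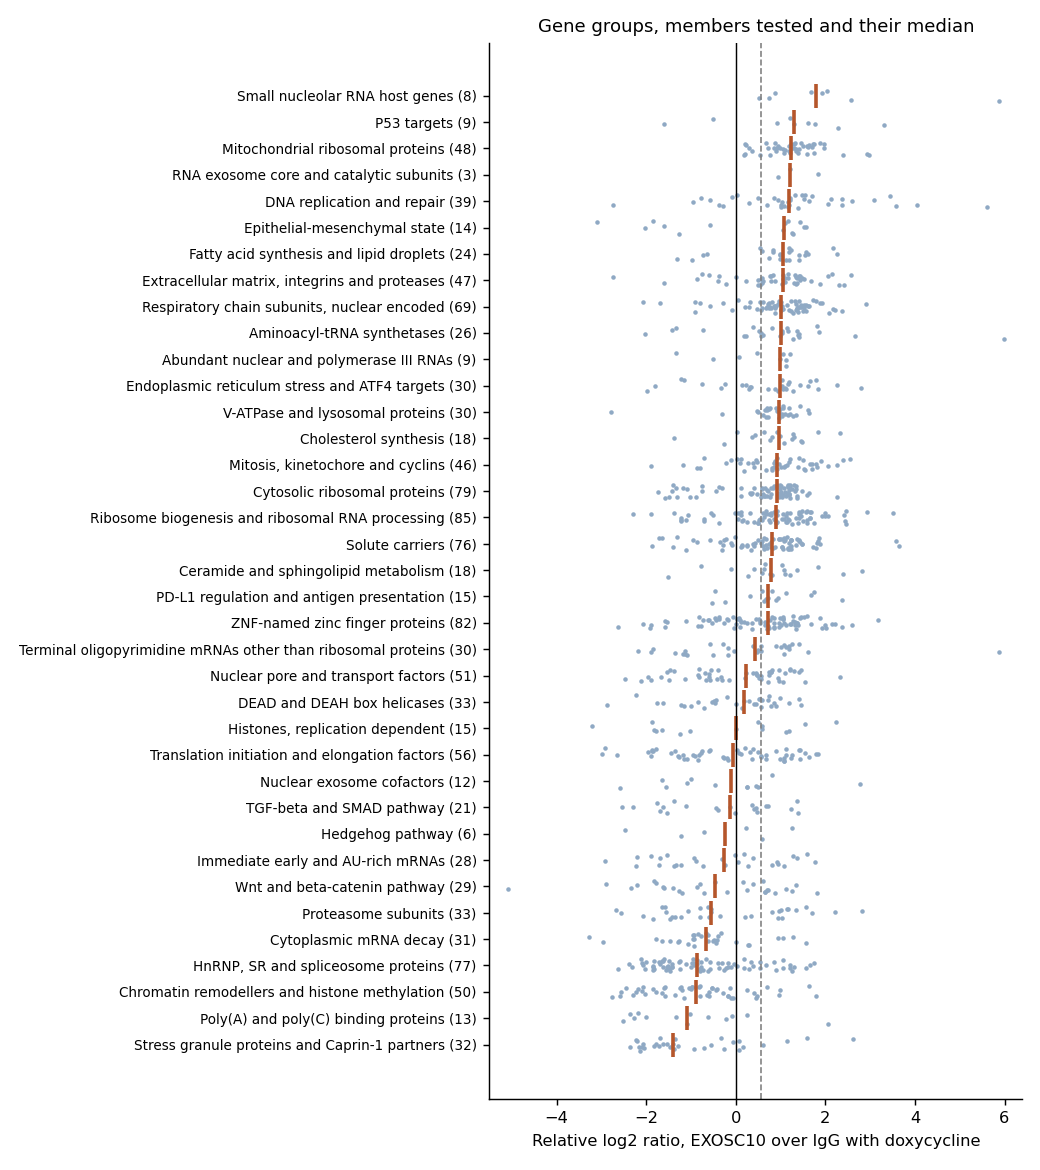
Relative log2 ratio of EXOSC10 over IgG with doxycycline (x axis) for the tested members (points) of 37 gene groups (y axis, number tested in brackets), with the group median as a bar; the solid line is the reference median and the dashed line the median of all genes tested, 0.57. Small nucleolar RNA host genes are at the top (1.80) and stress granule proteins at the bottom (-1.39), and most groups span both sides.

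Genes of the pathways named in or near the study's question were split. Of ceramide and sphingolipid genes 18 were tested, 8 above and 1 below, with a median of 0.79. KDSR, which makes sphinganine in de novo ceramide synthesis, had 7 and 149 reads (2.81, 1.84 to 4.26), SPHK1, the sphingosine kinase, 6.79 and 108 (2.40), and SGMS1, a sphingomyelin synthase, 164 and 159 (-1.51, -1.86 to -1.21, untreated -1.72). Fatty acid and lipid droplet genes had 24 tested, 12 above and 1 below, with a median of 1.06; LPIN1, a phosphatidate phosphatase, had 24.4 and 335 reads (2.26), and ACSL4, an acyl-CoA synthetase of polyunsaturated fatty acids, 419 and 469 (-1.32). Cholesterol synthesis genes had 18 tested, 8 above and 1 below, with a median of 0.96. LSS, which makes lanosterol, had 15 and 154 reads (1.83, 1.10 to 2.74).

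Of the PD-L1 regulation and antigen presentation genes 15 were tested, 4 above and 0 below, with a median of 0.71, though with a minimum of 20 reads the distance from the median of all genes was -0.10. TAPBP, a peptide-loading chaperone, had 32 and 305 reads (1.75), and CMTM4, a partner of PD-L1 at the membrane, 102 and 198 (-0.52).

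In the Hedgehog pathway SHH and GLI1 have no entry analysed here. SMO, the signal transducer, had 190 and 94 reads (-2.47, -2.88 to -2.14, untreated -2.01). The receptor PTCH1 lay at -1.22 when its entries were summed and at 5.52 by its entry of most reads, so its direction is not settled. GLI2 had 0 and 54.4 reads and was not tested. Of the list 6 were tested, 1 above and 2 below, with a median of -0.24.

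Wnt genes had 29 tested, 4 above and 11 below, with a median of -0.47. CTNNB1, which encodes beta-catenin, had 5785 and 3517 reads (-2.21, untreated -2.52), and the co-receptor LRP5 93 and 624 (1.25, untreated 1.02). TGF-beta genes had 21 tested, 3 above and 8 below, with a median of -0.13. The ligand TGFB1 lay above with 56 and 374 reads (1.24), the receptor TGFBR1 had 72 and 259 (0.36, -0.02 to 0.76), and SMAD4 lay below with 371 and 304 (-1.77). The feedback inhibitor SMAD7, with 256 and 143 reads, lay at -2.31 against -0.59 untreated, and the activin subunit INHBA, with 215 and 102, at -2.53 against -0.53.

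Short-lived mRNAs of immediate early genes and those with AU-rich elements had 28 tested, 5 above and 10 below, with a median of -0.27. MYC had 181 and 1237 reads (1.28, 1.06 to 1.52, untreated 0.98) and FOSL1, an AP-1 subunit, 86.8 and 836 (1.77). BTG1, an antiproliferative adaptor of deadenylases, had 3531 and 2100 reads (-2.24, -2.32 to -2.16, untreated -1.27), and CITED2, a coactivator-binding protein, 1686 and 1023 (-2.21, untreated -0.42). MYC and BTG1 were named as members far from the reference on each side, so their distance with doxycycline follows from that choice. Untreated, MYC and BTG1 lay in the same order.

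Of the remaining lists, p53 targets had 9 tested, 6 above and 1 below (median 1.29); DNA replication and repair 39, 26 above and 1 below (1.19), the 1 below being POLA1, the catalytic subunit of polymerase alpha, with 235 and 96 reads (-2.74). Extracellular matrix genes and proteases had 47 tested, 25 above and 2 below (1.06), the 2 being the sheddase ADAM10 with 778 and 323 reads (-2.75) and fibronectin, FN1, with 681 and 631 (-1.59). Endoplasmic reticulum stress and ATF4 targets had 30 tested, 15 above and 4 below (0.98), among them PHGDH of serine synthesis with 6 and 128 reads (2.80) and the chaperone HSPA5 with 5156 and 4174 (-1.79). V-ATPase and lysosomal genes had 30 tested, 13 above and 1 below (0.96), mitosis genes 46, 21 above and 2 below (0.92), and solute carriers 76, 33 above and 6 below (0.81). ZNF-named genes had 82 tested, 30 above and 8 below (0.71), but the distance from the median of all genes was -0.092 in thinned libraries and -0.10 within bins of untreated reads. Genes of epithelial-mesenchymal state had 14 tested, 8 above and 5 below (1.07). The 9 members with at least 500 reads stood at -0.13 from the median of all genes with that minimum. The distance was -1.26 for the 10 members tested in thinned libraries and -1.22 for the 11 tested with 1 entry per gene. Members of this list stood far apart: CDH2, N-cadherin, had 65 and 543 reads (1.57), TWIST1 313 and 243 (-1.84) and ZEB2 452 and 145 (-3.10).

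Among properties the ratio did not use, the length of the gene on the chromosome had a weak relation to it: the median was 0.77 in the shortest quintile of gene span and 0.19 in the longest (Spearman's rho -0.14 across 6248 genes, which are not independent). GC content of the promoter window had none to speak of (rho -0.01 across 5114 genes). By chromosome the median ran from 0.02 on chromosome 15 (180 genes tested, 39 above and 56 below) and 0.19 on chromosome 4 to 0.90 on chromosome 19 (408 genes, 178 above and 28 below) and 0.95 on chromosome 21 (69 genes, 32 above and 3 below).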

How the data were processed

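The authors deposited a table of CPM values, reads scaled to a fixed library total, for 24015 entries under 12838 gene symbols, with STAR, Partek and hg38 named per the submitters' processing notes; how reads were counted, with which strand setting and which versions, is not given in the sources used here. Each value carries a constant of 0.0001, which was taken off before the entries of a symbol were summed. The values are not counts, so no count model was used; reads were estimated by dividing by the CPM worth of 1 read, 0.132 for the doxycycline IgG library, 0.181 for doxycycline EXOSC10, 0.269 for untreated IgG and 0.236 for untreated EXOSC10. Of the genes tested, 62.4% had sums within 0.05 of whole reads in the doxycycline pair; the others hold reads shared between gene models. Every symbol's highest entry reached at least 10.0 reads in 1 library, so lower genes were not analysed here.

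TMM factors (30% of ratios and 5% of levels trimmed) were computed over the 4 libraries on all symbols, the 18 ribosomal RNA symbols included, with full library totals. They were 0.452 for doxycycline IgG, 2.53 for doxycycline EXOSC10, 0.705 for untreated IgG and 1.24 for untreated EXOSC10. On that scale the reference median was -0.54 with doxycycline and -0.47 untreated. The pseudocount of 0.2 CPM understates the ratios of low genes. Intervals are exact Clopper-Pearson at 95% on estimated reads, and PCR copies among the reads are not independent. Changes between the pairs have an interval from summed reciprocal reads. Symbols matched a current name for 12545 genes, an older name for 206 and none for 87, in the RefSeq table of GRCh38.p14. The computation was checked on simulated data. Python 3.11.15, numpy 2.4.6, pandas 2.3.3, scipy 1.17.1 and matplotlib 3.10.9 were used.

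The comparison, the 37 gene lists and the markers were chosen with earlier results of these data known. Named genes are CERS4, CD274, CAPRIN1, EXOSC10, SHH, GLI1, GLI2, SMO, TGFBR1 and CTNNB1, the 12 each way with whole reads whose nearer interval bound was farthest from 0, and up to 3 members each way of each list, some of which are not reported here; leading genes of a library and members set against these are given besides. Alternatives covered scaling, reference, read minimum, pseudocount, depth, whole reads and 1 entry per symbol.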

Additional observations from a re-analysis of the deposited data

Results flagged for a closer look

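For 3 of the genes named and tested in both pairs, the whole counting interval of the ratio of EXOSC10 over IgG lay on one side of the reference with doxycycline and on the other untreated; other named genes, WNT7A among them, changed side with an interval that reached 0 or with too few untreated reads. With 1 library per group these differences were not tested. CASK had 475 reads with IgG and 162 with EXOSC10 under doxycycline, a relative ratio of -3.02, and 50 and 159 untreated, at 1.14, a change of -4.16 (counting interval -4.68 to -3.63). RN7SL1 lay at -1.34 with doxycycline and 1.56 untreated, a change of -2.90 (-2.97 to -2.83), with IgG reads of 13153 and 2517 and EXOSC10 reads of 14559 and 10682. RN7SK lay at -0.50 and 1.43, a change of -1.93 (-2.09 to -1.76), with IgG reads of 1618 and 496 and EXOSC10 reads of 3209 and 1919. RN7SL1 holds reads shared with its copies. Over the 3580 genes tested in both pairs the change had a standard deviation of 0.75.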

How the results depend on the processing

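No paired analysis was possible because each group has 1 library. Against 2069 genes above and 1121 below, 2-fold from 0 gave 854 and 1674 on the TMM scale, 5072 and 33 by total counts, 3254 and 650 by non-ribosomal totals, 1249 and 1450 by upper quartile, and 740 and 1760 by median of ratios; these scalings shift every ratio by 2.45, 1.04, 0.21 and -0.08 relative to TMM for the last 4. With the median of all genes tested as the reference the counts were 805 and 1703. A minimum of 20 reads gave 4682 and 1380 of 10927 genes, and 500 reads 304 and 548 of 1450. Libraries thinned to equal non-ribosomal reads gave 1204 and 1040 of 4492, and genes with whole reads 1209 and 676 of 3906, with fewer genes tested. Pseudocounts of 1 and 0.05 CPM (1909 and 1091, 2103 and 1124) and 1 entry per symbol (2139 and 936) stayed within 1.5 times.

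Distances of list medians from the median of all genes tested changed sign in these cases, and the cause was not tested: respiratory chain subunits with a minimum of 500 reads (-0.46); oligopyrimidine mRNAs other than ribosomal proteins with that minimum (0.28) and within bins of untreated reads (0.64); small nucleolar RNA host genes (-0.016) and nuclear and polymerase III RNAs (-0.17) with 1 entry per symbol; histones thinned (0.076); ZNF-named genes thinned (-0.092) and within bins (-0.10); epithelial-mesenchymal genes with the 500 minimum (-0.13), thinned (-1.26) and with 1 entry per symbol (-1.22); and PD-L1 regulation genes with a minimum of 20 reads (-0.10). Except within bins, each list median was taken over the members tested under that alternative, so the members compared differ. With 1 entry per symbol TUG1 was at -1.39, G3BP1 at -0.56, PLK4 at 0.23 and PTCH1 at 5.52. No other list, and no other named gene called above or below, changed sign under the alternatives run for it. Depth limits the genes far above, whose IgG counts were 1 to 11 reads.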
